A study of Homo sapiens with 4 samples.

Results

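Most genes described here encode nuclear subunits of the mitochondrial respiratory chain and ATP synthase, in HepG2 cells treated with APRIL. The rule uses symbols and no measured value, and takes every gene whose symbol starts with NDUFA, NDUFB, NDUFC, NDUFS, NDUFV, SDHA, SDHB, SDHC, SDHD, UQCR, COX4, COX5, COX6, COX7, COX8 or ATP5, leaving out the NDUFAF assembly factors and pseudogene symbols. The rule gave 84 genes, read by 160 probe sets, among 19775 genes with exactly 1 symbol. Of the 84 genes, 36 belong to complex I, 7 to complex II, 6 to complex III, 17 to complex IV and 18 to complex V. By their known roles 75 are subunits. The other 9 share only the symbol's start: the antisense or divergent noncoding RNAs NDUFB2-AS1, NDUFV2-AS1 and NDUFV1-DT, the complex II assembly factors SDHAF1 to SDHAF4, the supercomplex factor COX7A2L and the ATP synthase inhibitor ATP5IF1.

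HepG2 is a hepatocyte-derived cancer line. The cells were deprived of serum, for 24 h by the design text and overnight by the labels, and total RNA was hybridised to the Affymetrix Human Genome U133 Plus array, 1 array for each time. The group at 0 h was untreated, and the groups at 2, 6 and 12 h had received 200 ng/ml of APRIL, a cytokine related to BAFF. All 4 groups share the line and the serum deprivation, and no untreated array at 2, 6 or 12 h was used here, so treatment and time in culture cannot be told apart.

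The respiratory chain sits in the inner mitochondrial membrane. Complexes I and II pass electrons from NADH and succinate to ubiquinone, complex III passes them on to cytochrome c, and complex IV hands them to oxygen, while I, III and IV pump protons that drive ATP synthesis by complex V. A few core subunits carry the redox centres and the rest are accessory. Most subunits are made from nuclear genes and imported, and the remainder are encoded in mitochondrial DNA. In liver this chain powers gluconeogenesis, urea synthesis and other energy-demanding work.

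Each deposited log2 value is centred on its own probe set, so the files hold differences between arrays and no expression level. Neither the marker genes of hepatocytes nor any subunit could therefore be checked for presence. A gene's ratio is the median over its probe sets of the log2 difference between 2 arrays. Each time has 1 array, so replicate error is unknown and nothing was tested, and every difference below is a difference between 2 arrays. As a yardstick, the ratios of 2 h over 0 h had a robust SD of 0.16 across all genes. The SD between probe sets of 1 gene had a median of 0.13 at 12 h over 0 h, over the 46 genes that have 2 or more, and 38 genes rest on 1 probe set.

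The 12 h array stood apart in one technical measure. It rests on 18 probe sets for control RNAs of bacteria and a phage, added to every array and called the bacterial RNAs here. Their median ratio was -0.35 at 12 h over 0 h, with a range from -0.47 to -0.21. At 2 h their median was 0.01 and at 6 h 0.06. Whether the 12 h offset lies in the cells or in the handling of the array was not tested. Centring on these RNAs subtracts from each array their median on that array. The resulting offset between 2 arrays can differ slightly from the median of their ratios. Centred in this way, the median of all genes becomes 0.36 at 12 h over 0 h and 0.41 at 12 h over 6 h. Directions below are on the deposited scale, where the median over all genes was 0.02 at 2 h, 0.05 at 6 h and 0.01 at 12 h over 0 h. Markers of other cell types, 17 genes for immune cells, fibroblasts, endothelium and muscle, had list medians between -0.14 and 0.12 at 12 h over 0 h, and the 9 hepatocyte markers read had a median of -0.02. Among single markers, PDGFRB, a growth factor receptor of fibroblasts, was at 0.89, ACTA1, skeletal muscle actin, at 0.66 and APOB, the hepatocyte apolipoprotein B, at -1.08 (SD 1.40 over 2 probe sets). The part of these markers in the results below was not tested.

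The DNA before the transcription start is shown for 5 genes. ATP5MC1 is shown because it had the lowest 12 h value of all members, ATP5MC2 because it encodes the same mature protein and lay near 0 there, NDUFB3 and UQCRQ because they were the lowest subunits of complexes I and III at 12 h, and SDHD because it holds the full NRF1 word. Each line gives the 250 bases before the start, from RefSeq on GRCh38.p14, read in the direction of the gene. Capitals mark the words searched. These were the palindromic NRF1 word and a looser form of it with any base at the fifth position, CCGGAAG for ETS factors such as GABPA, AAGATGG for YY1, CACGTG (the E-box), CCAAT and TATAAA, each on either strand. The stretches lie at chr17:48892537-48892786 on the + strand, chr12:53676331-53676580 on the - strand (the outermost of 3 starts), chr2:201071751-201072000 on the + strand, chr5:132866392-132866641 on the + strand and chr11:112086623-112086872 on the + strand.
ATP5MC1: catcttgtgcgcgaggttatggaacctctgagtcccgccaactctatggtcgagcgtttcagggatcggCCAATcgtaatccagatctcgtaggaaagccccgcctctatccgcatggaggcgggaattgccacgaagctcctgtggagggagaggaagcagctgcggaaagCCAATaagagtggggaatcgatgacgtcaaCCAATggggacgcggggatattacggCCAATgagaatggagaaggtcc
ATP5MC2: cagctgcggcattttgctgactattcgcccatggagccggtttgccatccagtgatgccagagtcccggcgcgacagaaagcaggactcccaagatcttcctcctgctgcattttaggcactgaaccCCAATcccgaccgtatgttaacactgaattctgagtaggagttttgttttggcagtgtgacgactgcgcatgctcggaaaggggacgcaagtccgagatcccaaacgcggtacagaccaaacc
NDUFB3: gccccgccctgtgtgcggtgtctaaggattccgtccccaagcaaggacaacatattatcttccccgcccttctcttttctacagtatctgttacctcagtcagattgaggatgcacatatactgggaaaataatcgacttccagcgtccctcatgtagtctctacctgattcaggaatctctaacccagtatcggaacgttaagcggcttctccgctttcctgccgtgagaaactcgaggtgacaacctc
UQCRQ: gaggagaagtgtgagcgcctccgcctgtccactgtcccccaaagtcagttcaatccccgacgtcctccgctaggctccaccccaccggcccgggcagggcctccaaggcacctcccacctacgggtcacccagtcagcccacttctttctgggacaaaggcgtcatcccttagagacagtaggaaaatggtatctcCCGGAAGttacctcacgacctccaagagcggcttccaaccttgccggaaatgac
SDHD: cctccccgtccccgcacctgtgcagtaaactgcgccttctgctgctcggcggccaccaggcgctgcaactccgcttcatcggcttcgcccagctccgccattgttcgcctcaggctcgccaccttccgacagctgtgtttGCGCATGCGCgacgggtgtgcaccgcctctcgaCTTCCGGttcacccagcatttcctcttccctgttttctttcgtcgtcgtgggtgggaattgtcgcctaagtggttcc

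ATP5MC1 holds 4 CCAAT words in this stretch, starting 181, 78, 48 and 22 bases before its start. Over windows of 300 bases (250 before and 50 after the start), 4 or more CCAAT words on either strand were found in 2 of 73 members, the other being ATP5F1E, and in 1.20% of all genes. ATP5MC2 holds 1 such word, and NDUFB3 none of the words searched. UQCRQ has an ETS word 54 bases upstream. SDHD has the NRF1 word at 110 bases and the reverse complement of the ETS word at 77 bases upstream. The full NRF1 word was found in 4 of the 73 members (5.48%), SDHD, ATP5F1C, NDUFA8 and NDUFB4. It was in 1.52% of all genes and 1.99% of protein-coding genes.

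Promoter windows were found for 73 of the 84 members. The looser NRF1 word was present in 18 of them (24.7%) against 6.98% of all 27305 genes with a window. For the ETS word it was 21 (28.8%) against 12.2%, and for the YY1 word 17 (23.3%) against 7.11%. Among protein-coding genes alone the shares were 9.67%, 16.5% and 7.9%, in the same order. Among 69 mitochondrial ribosomal protein genes they were 13.0%, 43.5% and 34.8%, so the ETS and YY1 words were more frequent there than among the members. NRF1, GABPA and YY1 are known activators of nuclear genes for mitochondria. TATAAA was less frequent among the members (9.59%) than among all genes (14.0%), and CCAAT was at 34.2% and 39.7%. The words were spread unevenly over the complexes. The ETS word was present in 5 of 31 complex I, 5 of 13 complex IV and 6 of 13 complex V subunits with a window, and the YY1 word in 9, 1 and 5. At 12 h over 0 h the 17 members with the YY1 word had a median ratio of -0.12 and the 56 without it -0.04, and the 18 with the looser NRF1 word had -0.08 against -0.09 for the 55 without. For the ETS word the order was opposite to that for the YY1 word, with -0.04 in the 21 members that hold it and -0.10 in the 52 without. The 9 members with the E-box had -0.01 and the 64 without it -0.09. For CCAAT the medians were -0.05 in 25 members and -0.10 in 48, and for TATAAA -0.10 in 7 and -0.09 in 66. These differences were not tested. The 12 h ratios had a robust SD of 0.19 across the members, and the words are spread unevenly over complexes whose medians also differ. A match is a description of the letters and says nothing of binding.

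Over the whole group the shifts were small, and their shape over time was a higher 6 h array and a lower 12 h array. Of the 84 genes, 50 (59.5%) had their highest value at 6 h, against 31.9% of all genes, and 52 (61.9%) had their lowest at 12 h, against 28.9%. In 31 genes (36.9%) both held, against 11.8% of all genes. These counts of highest and lowest arrays were not among the planned results. The joint pattern was not particular to the members. It also occurred in mitochondrial ribosomal protein genes, whose share was not counted. Examples were MRPL3, MRPL11, MRPL13, MRPL27, MRPL51, MRPS21, MRPS28 and MRPS33. Lowest at 6 h were 4 members (4.76%, all genes 18.9%), the 3 noncoding RNAs and ATP5MF. By contrast 5 members, among them COX4I1, had their highest value at 12 h (5.95%, all genes 29.1%). With the arrays centred on the bacterial RNAs the joint pattern was left in 3 members (3.57%) and in 1.13% of all genes. The bars of the array with the highest and lowest value show this split.

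**Figure D1:**
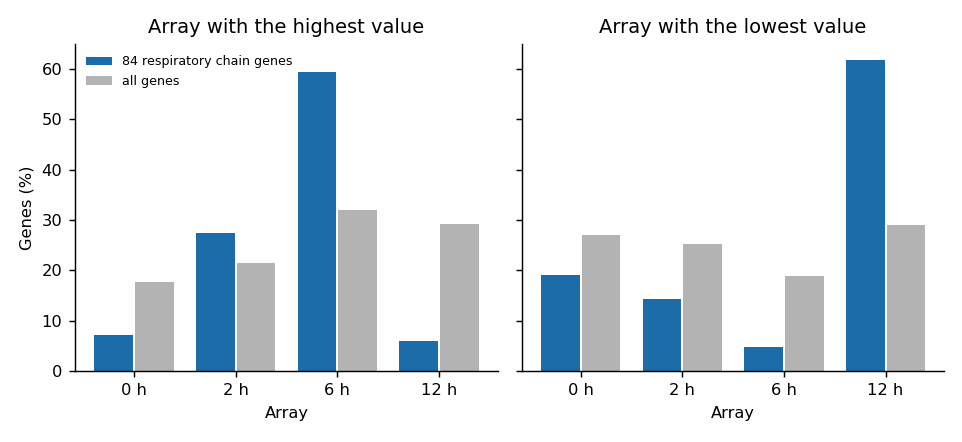
Share of genes, in percent, whose highest value (left) or lowest value (right) of the 4 arrays fell on each array, for the 84 respiratory chain genes (blue) and all genes (grey). The blue bars are tallest at 6 h on the left (59.5%) and at 12 h on the right (61.9%), on the deposited scale; centred on the bacterial RNAs the joint pattern holds in 3 genes.

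At 2 h over 0 h the median of the 84 genes was 0.04, with 52 above 0 (61.9%, all genes 53.5%). A log2 ratio of 0.32 or more in size was used as the threshold of all counts of higher and lower genes below. No member was higher by it, which 3.80% of all genes were, and 1, SDHAF3, was lower, as were 4.29% of all genes. At 6 h the median was 0.09, with 67 genes above 0 (79.8%, all genes 59.6%); centred on the bacterial RNAs the median was 0.01, with all genes at -0.03, and 50 genes were above 0. Past the threshold, 5 were higher (5.95%, all genes 8.57%) and 2 lower (2.38%, all genes 6.38%). At 12 h the median was -0.09, which is 0.10 under the median gene, with 57 below 0 (67.9%, all genes 47.7%). There 11 were lower past the threshold (13.1%, all genes 10.8%), a share near the background, and 2 were higher, COX8C and SDHAF2 (2.38%, all genes 13.4%). Past 1.5-fold were 3 genes, all lower, ATP5MC1, SDHAF3 and NDUFB3, a share of 3.57% beside 3.70% of all genes.

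The step from 6 h to 12 h held the most uniform shift. The median of the 84 genes was -0.17, where all genes had -0.02, and 75 genes were below 0 (89.3%, all genes 54.3%). Past the threshold, 21 were lower (25%, all genes 11.8%) and 1, NDUFB2-AS1, was higher (all genes 10.5%). Of the 75 subunits 71 were below 0, the exceptions being COX4I1, COX7B, COX8C and ATP5MF. COX7B had probe sets at -0.18 and 0.26, so its direction rests on which is read, and COX8C and ATP5MF rest on 1 probe set each. Among all members 19 had probe sets of both signs in this step. Of the 9 members that are no subunit, 4 were below 0. Centred on the bacterial RNAs, 14 of the 84 genes were below 0 (16.7%, all genes 6.84%) and 3 were lower past the threshold (all genes 1.79%). On the deposited scale 5 genes were past 1.5-fold lower, ATP5MC1, NDUFB3, NDUFA9, SDHAF3 and NDUFA3 (5.95%, all genes 3.4%).

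**Figure D2:**
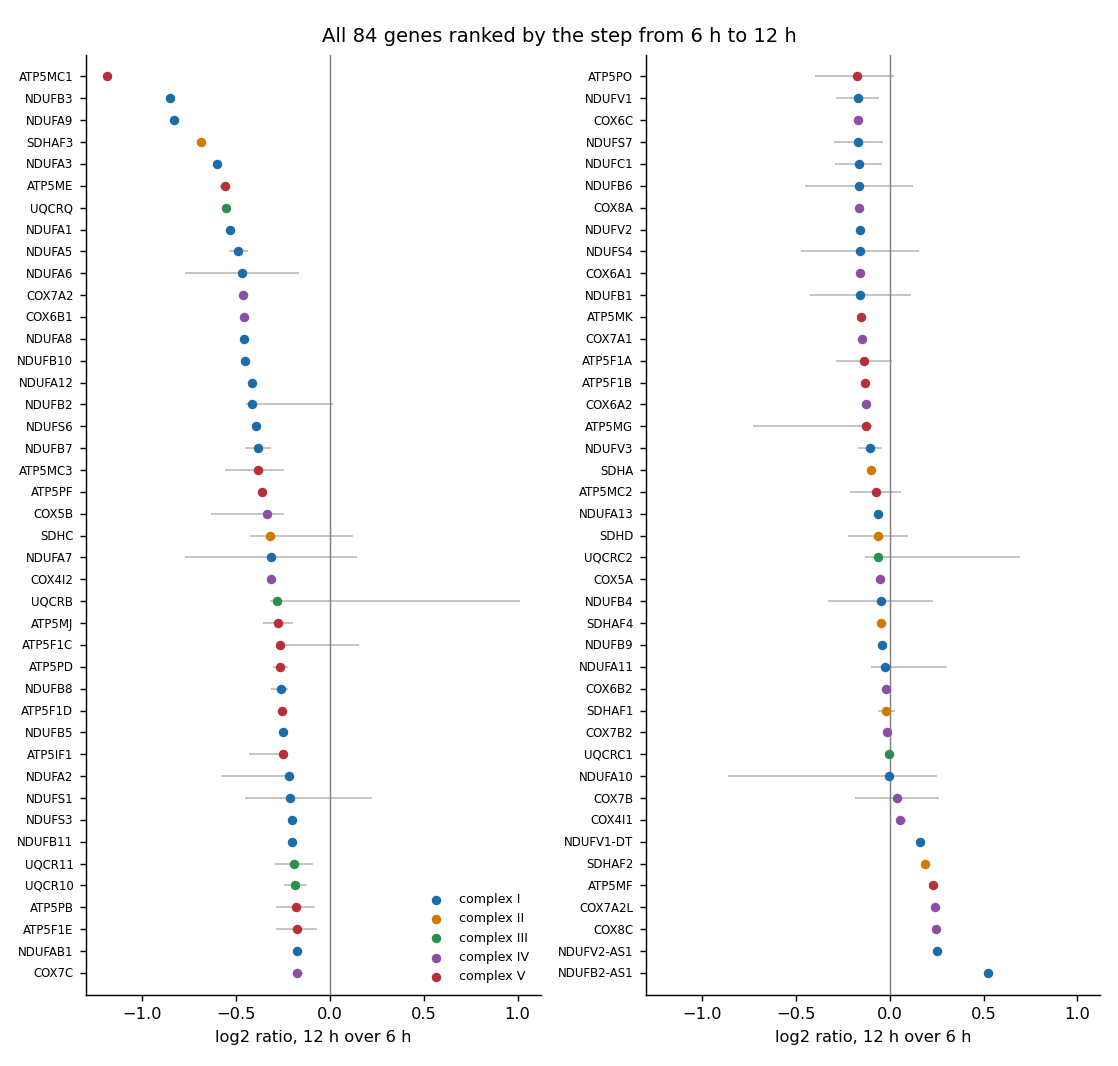
Log2 ratio of 12 h over 6 h for each of the 84 genes, ranked from the lowest (top left) to the highest (bottom right) and coloured by complex, with a grey line from the lowest to the highest of a gene's probe sets. ATP5MC1, at -1.19, stands apart from the next gene, NDUFB3 at -0.85, and the highest genes include the 3 noncoding RNAs; values are relative to the arrays as deposited, and centring on the bacterial RNAs raises all of them alike and leaves 14 below 0.

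The medians of the complexes are given as a description, and differences between them were not tested. At 12 h over 0 h the medians were -0.13 for complex I, -0.03 for II, -0.03 for III, -0.03 for IV and -0.14 for V, as deposited. The widest gap was 0.12, between complexes IV and V. At 6 h over 0 h the medians lay between 0.06 (II) and 0.13 (IV), a gap of 0.07, and centred on the bacterial RNAs between -0.02 (II) and 0.05 (IV). At 2 h they lay between -0.02 (V) and 0.12 (II), a gap of 0.14. The 2 h value of complex II rests on its assembly factors: its 3 subunits alone had a median of -0.02, with 2 of 3 below 0. The medians of 12 h over 6 h lay between -0.22 (V) and -0.06 (II). Centred on the bacterial RNAs the 12 h over 0 h medians became 0.22, 0.32, 0.32, 0.32 and 0.21 for I to V, in front of 0.36 for all genes, so that the order among groups was kept while the sign was not.

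**Figure D3:**
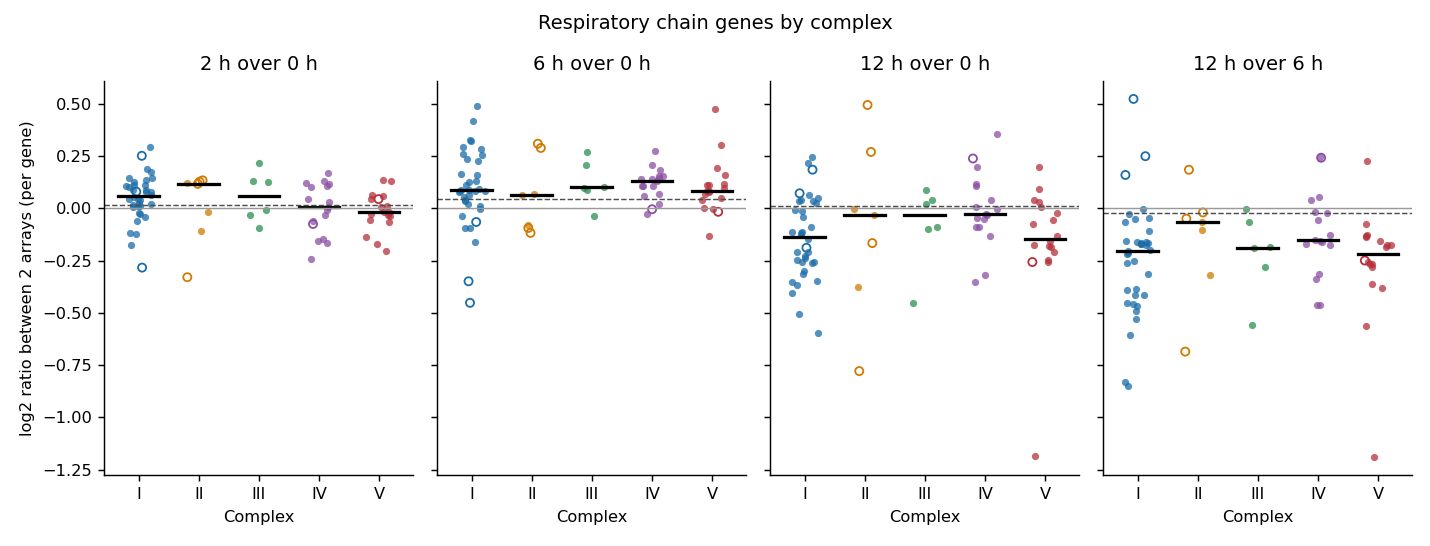
Log2 ratio of each gene (points; open circles are members that are no subunit) in complexes I to V, in a panel for each later array over 0 h and one for the step from 6 h to 12 h. Black bars are the medians of the complexes and the dashed line is the median of all genes; most points lie within 0.5 of 0, the clouds of the complexes overlap, and ATP5MC1 is the low point at -1.19 in the 2 panels on the right. Centred on the bacterial RNAs the medians of both 12 h panels lie above 0.

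Complex I oxidises NADH in a peripheral arm that projects into the matrix and pumps protons in a membrane arm. At 12 h over 0 h, 26 of its 36 genes were below 0 (all genes 47.7%), and of its 33 subunits 25. In the peripheral arm 13 of 14 subunits were below 0, with a median of -0.22, and in the membrane arm 11 of 18, with a median of -0.13. The exception in the peripheral arm was NDUFV3, an accessory subunit next to the NADH site, at 0.22 (SD 0.19 over 2 probe sets). The 5 core subunits read were all below 0. NDUFS1, the largest iron-sulphur subunit, was at -0.35 (SD 0.21 over 5 probe sets), NDUFV2 at -0.26, NDUFV1, which holds the flavin, at -0.21, NDUFS3 at -0.04 and NDUFS7 at -0.01. With the probe set of widest range NDUFS1 was at 0.08. All 33 subunits were below 0 at 12 h over 6 h as deposited (all genes 54.3%), from -0.85 to -0.0024. The 3 noncoding RNAs were above 0.

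NDUFB3, an accessory subunit of the membrane arm, was the lowest complex I gene at 12 h. Its deposited values were 0.09, -0.09, 0.34 and -0.51 in order of time, so that the 12 h array was lowest and the 6 h array highest. Its ratio over 0 h was -0.60 at 12 h (1.51-fold lower), and -0.85 over 6 h. NDUFA9, an accessory subunit where the arms meet, had the same shape, with values of -0.02, 0.02, 0.31 and -0.53 in this order and a ratio of -0.51 at 12 h over 0 h. Both rest on 1 probe set.

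Further complex I subunits lower past the threshold at 12 h over 0 h were NDUFA6 at -0.40, NDUFB10 at -0.37, NDUFS1 as given and NDUFA8 at -0.35. The probe sets of NDUFB10 were close (SD 0.08 over 2). Those of NDUFA6 were at -0.69 and -0.11. NDUFA7, a peripheral arm subunit at -0.24, had probe sets at -0.69 and 0.22, so its direction rests on which is read. Centred on the bacterial RNAs, NDUFA8 was at 0.0061, NDUFS1 at 0.0018 and NDUFB10 at -0.01, whereas NDUFB3 was at -0.24 and NDUFA9 at -0.15.

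The highest complex I gene at 6 h was NDUFA3, a membrane arm subunit, with deposited values of -0.10, 0.10, 0.40 and -0.21 at 0, 2, 6 and 12 h and a ratio of 0.49 at 6 h (1.41-fold). It was followed by NDUFB7 at 0.42, with probe sets at 0.41 and 0.43, NDUFA9 at 0.33 and NDUFV3 at 0.32. The lowest at 6 h were the noncoding NDUFB2-AS1 at -0.45 and NDUFV1-DT at -0.35, and the lowest subunit was NDUFB1 at -0.16, whose probe sets were at 0.24 and -0.56. At 2 h the highest was NDUFV3 at 0.29 and the lowest NDUFV1-DT at -0.28, with NDUFB3 the lowest subunit at -0.17. NDUFA11, a membrane arm subunit, was the highest at 12 h, at 0.25 (SD 0.27 over 3 probe sets).

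NDUFB2-AS1, an antisense RNA, read -0.04, 0.04, -0.49 and 0.04 over the arrays, lowest at 6 h, while NDUFB2, the subunit gene it is named for, read -0.02, 0.02, 0.11 and -0.16. NDUFB2-AS1 rests on 1 probe set and NDUFB2 on 3. NDUFA10, a membrane arm subunit with 5 probe sets, showed the widest disagreement at 2 h, from -0.66 to 0.45, around a median of 0.08.

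Complex II, succinate dehydrogenase, also works in the citric acid cycle. Of its subunits SDHA, SDHC and SDHD were read. SDHA, the flavoprotein that oxidises succinate, was at 0.12, 0.07 and -0.03 at 2, 6 and 12 h over 0 h. SDHC, a membrane anchor, was the lowest subunit at 12 h, at -0.38, and 6 of its 7 probe sets lay between -0.47 and -0.34 while the remaining probe set was at 0.22. SDHD, the other anchor, was at -0.11, 0.06 and -0.00084, with probe sets at -0.21 and 0.21 at 12 h.

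The complex II assembly factors were farther apart than its subunits. SDHAF3, which helps insert the iron-sulphur clusters, had deposited values of 0.21, -0.12, 0.12 and -0.57, with the 12 h array lowest, and a ratio of -0.78 at 12 h (1.72-fold lower). At 2 h it was also the lowest member of all, at -0.33. SDHAF2, which attaches the flavin to SDHA, read -0.21, -0.10, 0.10 and 0.28, so that each later array was higher than the one before, and at 12 h it was the highest of the 84 genes at 0.50 (1.41-fold). SDHAF1 was at 0.27 (SD 0.08 over 2 probe sets) and SDHAF4, the highest complex II member at 2 h with 0.13, was at -0.12 at 6 h and -0.17 at 12 h. SDHAF2 and SDHAF3 rest on 1 probe set each, and the gap between them at 12 h does not depend on how the arrays are centred.

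Complex III, which oxidises ubiquinol, had 3 of 6 genes below 0 at 12 h over 0 h (all genes 47.7%). At 12 h over 6 h all 6 were below 0 (all genes 54.3%). UQCRQ, a small accessory subunit, was the lowest, with values of 0.02, -0.02, 0.12 and -0.44 over the arrays and a ratio of -0.45 at 12 h over 0 h from 1 probe set. UQCRC1 and UQCRC2, the large core proteins, were at 0.09 and -0.10, and UQCR10 and UQCR11 at -0.09 and 0.02. UQCRC1 was the highest of the complex at 2 h, at 0.22, and at 12 h. UQCRB, which helps bind ubiquinone, was the lowest at 2 h, at -0.09, and the highest at 6 h, at 0.27. Of its 4 probe sets 3 were between -0.07 and 0.07 at 12 h, and the remaining one was at 1.01. UQCRC2 was the lowest at 6 h, at -0.03.

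Complex IV, cytochrome c oxidase, had the highest median at 6 h over 0 h, 0.13, with 15 of 17 genes above 0 (all genes 59.6%). COX5B was highest there, at 0.27, and COX7B2 lowest, at -0.03. At 2 h COX8A was highest, at 0.17, and COX6A2 lowest, at -0.24. At 12 h 10 of 17 were below 0 (all genes 47.7%). COX7A2 was the lowest, with values of 0.08, -0.08, 0.19 and -0.27 and a ratio of -0.35, and COX6B1, the subunit that clamps the dimer, came next at -0.32. COX4I1, the regulatory subunit, was lowest at 0 h and highest at 12 h, with values of -0.12, -0.01, 0.01 and 0.05, with a ratio of 0.20 (SD 0.08 over 4 probe sets). With the 6 isoforms of limited tissue range left out, the medians were 0.03 at 2 h, 0.14 at 6 h and -0.03 at 12 h.

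Several complex IV subunits have a widely expressed and a tissue-limited isoform. For subunit 4, COX4I1 and COX4I2, the lung and hypoxia form, were at 0.20 and -0.13 at 12 h over 0 h. COX6A1 and the muscle form COX6A2 were at -0.0017 and 0.0069. COX6B1 and COX6B2 were at -0.32 and 0.12, and COX7B and COX7B2 at 0.11 and -0.04. COX8A was at -0.05 and COX8C, the testis form, at 0.36, the highest of the complex. COX7A1, the muscle form, was at -0.09, beside COX7A2 at -0.35, and COX7A2L, a relative that joins complexes III and IV, was at 0.24. Whether the tissue-limited forms were present in these cells cannot be read from centred values.

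Complex V makes ATP as protons turn its c-ring. Of its 18 genes 13 were below 0 at 12 h over 0 h (all genes 47.7%). At 12 h over 6 h 17 were below 0 (all genes 54.3%), the exception being ATP5MF at 0.23. In the catalytic head and central stalk all 5 genes were below 0 at 12 h, between -0.21 (ATP5F1D) and -0.02 (ATP5F1A), after values between 0.04 and 0.12 at 6 h. The 4 peripheral stalk genes were likewise all below 0, from -0.25 (ATP5PF, the coupling factor) to -0.07 (ATP5PO). Of the 5 small membrane subunits 4 were above 0, with ATP5ME at -0.26 the exception. One of the 4, ATP5MG at 0.03, had probe sets at -0.53, 0.01, 0.05 and 0.07, so its direction rests on which is read. ATP5F1B, the catalytic beta subunit, was the highest of the complex at 2 h, at 0.14, and ATP5PF the lowest, at -0.20. ATP5IF1, which blocks ATP hydrolysis, was at 0.04, -0.02 and -0.26 at 2, 6 and 12 h.

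ATP5MC1 was the one gene of the 84 past 2-fold in any comparison with 0 h (1.19%, all genes 0.986% lower). It encodes the c subunit, as do ATP5MC2 and ATP5MC3, whose precursors differ in the import signal but give the same mature protein. Its deposited values were 0.03, -0.03, 0.04 and -1.15 over the arrays in order of time. The first 3 arrays lie together and the 12 h array lies far below them. The ratio of 12 h over 0 h was -1.19 (2.27-fold lower), and centred on the bacterial RNAs it was -0.83.

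The other c subunit genes were higher than ATP5MC1 at 12 h. ATP5MC2 read -0.03, -0.20, 0.05 and -0.02, with ratios of -0.17, 0.08 and 0.01 at 2, 6 and 12 h, and its 2 probe sets at 12 h were at -0.08 and 0.09. ATP5MC3 had a ratio of 0.01, 0.07 and -0.18, and its 3 probe sets at 12 h lay between -0.32 and -0.08, all below 0. At 12 h over 6 h ATP5MC3 was at -0.38, lower past the threshold, and ATP5MC2 at -0.08. All 5 of these probe sets lay above the single probe set of ATP5MC1 at 12 h. ATP5MC1 is read by 1 probe set of a kind that can match several transcripts, so it has no value when such probe sets are left out.

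**Figure D4:**
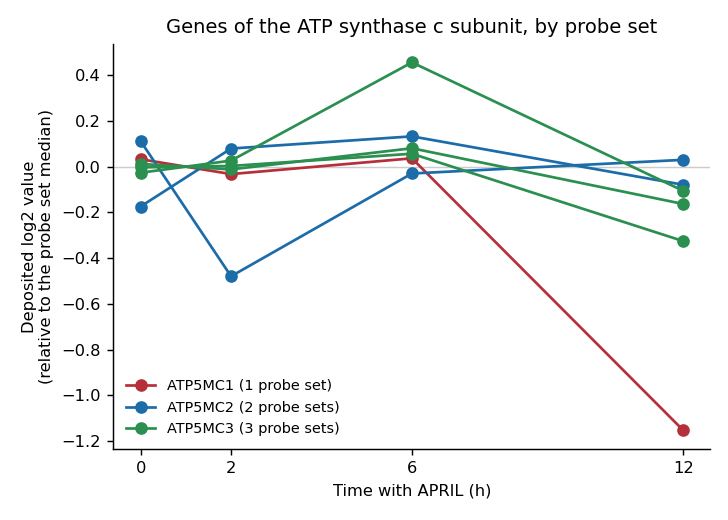
Deposited log2 value, centred per probe set, on the 4 arrays (time with APRIL in h) for the genes of the ATP synthase c subunit, 1 line for each probe set. ATP5MC1 (red) is near 0 to 6 h and at -1.15 at 12 h, whereas the lines of ATP5MC2 and ATP5MC3 stay between -0.48 and 0.46.

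At 6 h the highest complex V gene was ATP5MJ, a small proteolipid of the membrane part, with values of -0.11, -0.14, 0.37 and 0.09 and a ratio of 0.48 (1.39-fold). Its 2 probe sets were at 0.66 and 0.30. It was also the highest at 12 h, at 0.20, where its probe sets were at 0.46 and -0.06. ATP5MF was the lowest at 6 h, at -0.13. ATP5ME, a subunit at the dimer interface, read 0.07, -0.07, 0.37 and -0.19, so that 6 h was highest and 12 h lowest, with a step of -0.56 from 6 h to 12 h in which its 2 probe sets were close (SD 0.03).

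Mitochondrial DNA encodes further subunits of complexes I, III, IV and V, among them proton-pumping subunits of complex I and the catalytic core of complex IV. Of 13 such genes 7 were read, ND2, ND4, ND6, COX1, COX2, COX3 and ATP6. All 7 were below 0 at 12 h over 0 h as deposited (all genes 47.7%), with a median of -0.23. At 2 h all 7 were also below 0 (all genes 45.9%), with a median of -0.07. ND6, the one encoded on the opposite strand, was lowest, with deposited values of 0.52, 0.01, -0.01 and -0.50 and a ratio of -1.03 at 12 h. ATP6 was at 0.37 at 6 h and -0.08 at 12 h, COX3 at 0.31 and -0.23, and COX2 at 0.02 and -0.01. Centring on the bacterial RNAs was not run on this list.

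Genes that build or feed the chain were mixed on the deposited scale. Of 16 complex I assembly factors, 3 were higher and 4 lower past the threshold at 12 h over 0 h, where 13.4% of all genes were higher and 10.8% lower (median -0.07), with FOXRED1 at -0.75 and NDUFAF1 and NUBPL both at -0.49. Of 28 factors for complexes III and IV, 3 were higher and 4 lower (median -0.12), with COX19 at 0.93 (SD 0.76 over 2 probe sets) and SCO2, a copper chaperone, at 0.58. Of 7 factors for complexes II and V, 2 were higher and 1 lower (median -0.16), and TMEM242 was at 0.46. Among 20 genes of electron carriers and ATP export, 2 were higher and 6 lower (median -0.14). This list holds CYC1, a complex III subunit that the symbol rule does not take, at -0.12. The ubiquinone synthesis genes COQ2 and COQ3 were lowest, at -0.94 (SD 0.47 over 2 probe sets) and -0.75 (SD 0.10 over 2). Of 15 citric acid cycle genes 1 was higher, IDH3A at 0.70, and 5 lower (median -0.24), with IDH2 at -0.86 and SUCLG2 at -0.78. Of 22 protein import genes 3 were higher and 2 lower (median 0.05), with TIMM8A at -0.79 and HSPA9, the matrix chaperone, at 0.57.

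Most regulators of mitochondrial biogenesis were above 0 at 12 h, 16 of 21 (all genes 51.7%). Of the 21 genes 10 were higher and 0 lower past the threshold at 12 h over 0 h, with a median of 0.25, beside 13.4% and 10.8% of all genes. SIRT1, a deacetylase that acts on PGC-1alpha, was at 0.90 from 1 probe set, and ESRRA, the nuclear receptor that partners with it, at 0.78 (SD 0.33 over 2). NRF1 was at 0.44 (SD 0.30 over 5), YY1 at 0.48 (SD 0.49 over 6), GABPB1 at 0.34 and PPARGC1A at 0.33, the last with widely different probe sets (SD 0.82 over 2). NRF1 and YY1 belong to words searched in the promoters above. GABPA, named above with the ETS word and the partner of GABPB1, was at 0.13 (SD 0.26 over 2 probe sets), not past the threshold. At 12 h the 84 genes had a median of -0.09. The 5 regulators below 0 were the nuclear receptor ESRRG at -0.26, the mitochondrial DNA transcription factors TFAM at -0.22, TFB2M at -0.19 and TFB1M at -0.18, and the deacetylase SIRT3 at -0.20. No comparison between these sets was tested.

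Against other large housekeeping groups, the respiratory chain had medians close to those of the mitochondrial ribosome. The 75 mitochondrial ribosomal protein genes had medians of 0.09, 0.06 and -0.10 at 2, 6 and 12 h over 0 h, with MRPL1 at -0.95 and MRPS6 at 0.95 at 12 h, and 55 of 75 were below 0 at 12 h over 6 h. The 59 cytosolic ribosomal protein genes had medians of 0.02, 0.07 and 0.08, with RPS27L at -0.65 and RPL27A at -0.62, and 29 of 59 were below 0 at 12 h over 6 h. The respiratory chain had 0.04, 0.09 and -0.09, and 75 of 84. Of all genes 54.3% were below 0 at 12 h over 6 h. The plot of group medians by time shows this.

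**Figure D5:**
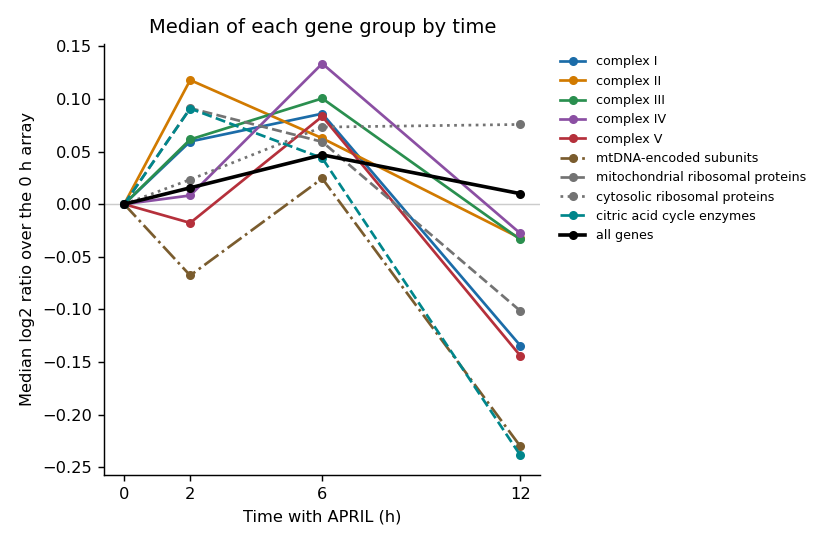
Median log2 ratio over the 0 h array against time with APRIL (h) for complexes I to V, the mitochondrially encoded subunits, mitochondrial and cytosolic ribosomal proteins, citric acid cycle enzymes and all genes (black). The complexes end between -0.03 and -0.14 at 12 h, below the cytosolic ribosomal proteins at 0.08; centring on the bacterial RNAs would raise every 12 h point alike, to above 0 for each complex.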

How the data were processed

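Total RNA of 4 HepG2 cultures was measured on 1 array each. The authors deposited log2 values per probe set, and the submitters' processing notes name RMA, without a version. In the deposited table the median of each of the 54675 probe sets over the 4 arrays is 0 within 1e-06; what software centred them the sources used here do not say. Base 2 and the direction (higher is more transcript) are taken from RMA's usual scale. Column medians were -0.0050, 0, 0.011 and -0.0043 at 0, 2, 6 and 12 h.

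Of the probe sets, 41091 had 1 symbol and 1801 several; control probe sets were left out. Symbols were matched by gene identifier to the RefSeq table of GRCh38.p14, for 41037 probe sets, and none changed. Ratios, medians and counts were computed with Python 3.11.15, pandas 2.3.3 and numpy 2.4.6, without tests, and the computation was tested on simulated data. The thresholds (a log2 ratio of 0.32, 1.5-fold and 2-fold) only serve to count. The symbol rule that gives the members uses no measured value, but the gene family, the lists and the roles were chosen with earlier results of these data known. Named genes are the highest and lowest of each complex at each time, those past 1.5-fold, isoforms of 1 subunit, those whose probe sets differ by 1 or more, and the 2 largest of each pathway list at 12 h. Genes named beyond this rule were chosen after their values were seen. The counts of highest and lowest arrays, and those for the step from 6 h to 12 h, were not planned beforehand. NDUFB1, at 6 h over 2 h, and UQCRB met the probe set rule, as did NDUFA10. Alternatives were the mean or the widest probe set, leaving out probe sets that can match several transcripts, other centrings, another reference, other thresholds and subsets of genes. Precision is limited by having 4 arrays. Subunits whose probe sets carry several symbols are not analysed here.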

Additional observations from a re-analysis of the deposited data

How the results depend on the processing

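The choice of scale decided the sign at 12 h. Centred on the bacterial RNAs, the medians at 12 h over 0 h were 0.22 for complex I, 0.32 for II, 0.32 for III, 0.32 for IV, 0.21 for V and 0.26 for all members, with all genes at 0.36, and at 12 h over 6 h they were 0.23, 0.37, 0.25, 0.28, 0.22 and 0.26, with all genes at 0.41. Under that centring 33 members were higher and 2 lower past the threshold (a log2 ratio of 0.32) at 12 h over 0 h, as were 57.5% and 2.75% of all genes, 9 were below 0, 3 were higher at 6 h, and at 12 h over 6 h 3 were lower and 14 below 0. The joint pattern of 6 h highest and 12 h lowest held in 3. At 12 h over 0 h NDUFA8 was then at 0.0061 and NDUFS1 at 0.0018, both above 0, and NDUFS1 was at 0.084 with its widest probe set. This centring moves every gene of an array alike, so each group's distance to the median gene stays. No other complex median moved by 0.16 or more under any other alternative run. The gaps between the highest and the lowest complex were 0.07 to 0.15, below this limit. A change in their order or sign could therefore go unseen by it.

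Counts past the threshold depended on how genes were summarised. With the widest probe set per gene, 1 gene was higher at 2 h, 10 at 6 h and 8 at 12 h over 0 h, and 4, 4 and 18 were lower, where all genes were also called more often (20.5% and 18.2% at 12 h). Without probe sets that can match several transcripts (71 genes left), 1 gene was higher and 2 were lower at 2 h, 6 were higher at 12 h, and 20 had the joint pattern (28.2%, all genes 11.2%). Centring on the array medians left 3 higher at 6 h. Against the mean of the other 3 arrays, 1 gene was higher at 2 h and 9 at 6 h, and 0 and 1 were lower. Among the 46 genes with 2 or more probe sets, a subset chosen after seeing the data, 0 were lower at 2 h and 0 at 6 h, while 4 were lower at 12 h, 8 were lower at 12 h over 6 h, and 3 were higher at 6 h but 0 at 12 h; 38 were above 0 at 6 h, 32 below 0 at 12 h, 43 below 0 at 12 h over 6 h and 16 had the joint pattern. These counts are smaller by construction. Thresholds of 1.5-fold and 2-fold left 3 and 1 genes lower at 12 h over 0 h, 5 and 1 lower at 12 h over 6 h, and 0 in every other count at these times. Of the group values under an alternative 56 moved and 260 stayed within 0.16 or, for counts, within 1.5 times. No paired analysis was possible because each time has 1 array.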
